A study of Mus musculus with 59 samples.

Results

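The transcripts described here are Meg3, Rian and Dlk1, the 3 genes of the imprinted Dlk1-Dio3 domain that have a named probe set on this array. All probe sets that the platform annotation assigns to these genes alone were taken, 8 of 22626 in all. Meg3, also written Gtl2, has 4 (1426758_s_at, 1436057_at, 1436713_s_at and 1452183_a_at), Rian has 3 (1427580_a_at, 1428055_at and 1452899_at), and Dlk1 has 1 (1449939_s_at). No probe set is assigned here to Begain, Rtl1, Mirg, Dio3 or Dio3os.

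RNA of 59 mouse lines was read on Affymetrix arrays, 1 array per line. The lines are 4 KH2 embryonic stem cell (ESC) clones labelled as targeted, 48 induced pluripotent stem cell (iPSC) clones, 1 iPSC clone (Adeno-2) made from fetal liver with adenovirus, and 6 ESC subclones made by nuclear transfer (NT-ESC). According to the series text, iPSC came from tissues of chimeric mice made with ESC that carry an inducible cassette of myc, Klf4, Oct4 and Sox2. MEFs (embryonic fibroblasts) of chimera 1 gave 6 iPSC clones. Haematopoietic stem cells (HSC), granulocyte-macrophage progenitors (GMP) and granulocytes gave 4, 4 and 3 clones each from mouse 1 and from mouse 2, and 3 each from chimera 2. The remaining 11 clones came from cells labelled PFs (2 of mouse 1, 3 of mouse 2) or TTFs (6 of chimera 2). NT-4, NT-5 and NT-6 were derived from Adeno-2, NT-7 from iPSC-7 (an HSC clone), and NT-8 and NT-9 from iPSC-15 (a granulocyte clone). Culture was the same for all lines, on irradiated MEFs in LIF medium containing 15% FBS, and a preplating step of 45 minutes preceded RNA extraction. Every iPSC group rests on 1 animal, no line has a repeat array, and the p-values below measure the spread between clones.

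Dlk1-Dio3 is an imprinted domain, in which the parental origin of a chromosome decides which genes are transcribed. Meg3 and Rian are noncoding RNAs transcribed from the maternal copy, in the same direction and next to each other, together with clusters of small nucleolar RNAs and microRNAs. Dlk1 is a protein-coding gene of the paternal copy that encodes a transmembrane ligand related to the Notch ligands, and it is abundant in mesenchymal tissues of the embryo. Low Meg3 in mouse iPSC is known to mark clones in which the maternal copy of the domain is silenced and which support embryonic development poorly. Methylation and development were not measured in this series.

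The sequences at the starts of the 3 genes are shown because Meg3 and Rian moved together in most lines while the first Meg3 start and the Rian start differ in composition. They are RefSeq sequences of assembly GRCm38.p6 on the plus strand, from 250 bases before the annotated start, and 50 bases into the transcript for the 2 noncoding RNAs. Capitals mark the letters TGACGTCA (the cAMP response element) and TATAAA (the TATA box), searched on both strands.
Meg3, chr12:109540746-109541045: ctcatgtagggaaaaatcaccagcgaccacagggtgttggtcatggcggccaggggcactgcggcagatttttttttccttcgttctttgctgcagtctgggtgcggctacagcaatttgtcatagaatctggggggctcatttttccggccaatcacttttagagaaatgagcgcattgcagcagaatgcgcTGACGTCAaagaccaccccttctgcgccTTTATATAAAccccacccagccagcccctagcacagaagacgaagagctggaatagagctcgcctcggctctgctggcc
Rian, chr12:109603695-109603994: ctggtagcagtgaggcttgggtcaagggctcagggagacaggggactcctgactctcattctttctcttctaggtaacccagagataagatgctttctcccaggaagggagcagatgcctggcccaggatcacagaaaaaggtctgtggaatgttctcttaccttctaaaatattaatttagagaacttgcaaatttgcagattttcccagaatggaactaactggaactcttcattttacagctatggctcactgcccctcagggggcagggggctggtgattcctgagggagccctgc
Dlk1, first 250 bases of chr12:109452573-109452872: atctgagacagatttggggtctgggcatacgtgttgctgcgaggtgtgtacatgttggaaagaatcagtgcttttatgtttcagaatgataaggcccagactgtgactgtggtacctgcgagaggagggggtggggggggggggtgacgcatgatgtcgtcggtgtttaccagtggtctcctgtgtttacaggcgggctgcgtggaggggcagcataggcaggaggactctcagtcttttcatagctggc
At the first of the 2 Meg3 starts listed, TGACGTCA begins 57 bases and TATAAA 25 bases before the start, the second overlapping a TATAAA on the opposite strand. Of 32851 mouse promoters of the same length, 1.79% hold TGACGTCA and 13.6% hold TATAAA on either strand. Neither motif was found at the Rian start or at the Dlk1 start. The 300 bases hold 13 CG dinucleotides at Meg3, 9 at Dlk1 and 0 at Rian, against a median of 7 over all promoters. The second Meg3 start has 1 CG and neither motif, so the difference from Rian holds for the first start alone. Between the start of Meg3 and the end of Mirg, which starts downstream of the Rian start, RefSeq places 57 microRNA hairpins. Of these 1 (Mir770) lies within Meg3 and 3 (Mir341, Mir1188 and Mir370) within Rian. MicroRNAs were not read by this array.

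All values below are log2 values on a scale in which each array has a mean near 0, so that a difference of 1 is a factor of 2. Levels of different probe sets are not compared. A shift is the value of a line minus the ESC mean of that probe set, averaged over the probe sets of a gene. Probe sets ending in _s_at or _a_at can match more than 1 transcript. The arrays of NT-7, NT-8 and NT-9 stood apart, with a spread over probe sets of 2.35 to 2.47 (SD) against 2.53 to 2.64 in the other lines. In these arrays the mean of 14 pluripotency probe sets was 3.04 to 3.46, against 3.93 to 4.16 in ESC, and that of 10 primitive endoderm probe sets was -0.49 to 0.42, against -1.85 to -1.72 in ESC. One clone labelled PF, iPSC-32, had a Pou5f1 value of 0.28, against 3.78 or more in every other line. Pluripotency markers were otherwise high and the 13 haematopoietic probe sets low (means of -2.61 to -2.04) in every line. The mean of 29 fibroblast and feeder probe sets ran from -0.32 (NT-5) to 2.01 (iPSC-32), and among ESC it was 0.92 in ESC-1 and -0.30 to 0.15 in the other 3.

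In every ESC clone Meg3 read higher than in any MEF-derived iPSC, by every probe set. Probe set 1426758_s_at read 2.97, 2.80, 2.77 and 2.30 in ESC-1 to ESC-4, and 1452183_a_at read 3.38, 2.81, 2.95 and 2.74. Probe set 1436713_s_at read 1.45, 0.82, 0.99 and 0.91, and 1436057_at read 1.07, 0.22, -0.03 and 0.43. ESC-1 was the highest of the 4 in each. In the 6 MEF-derived iPSC, 1426758_s_at ranged from -0.37 to 1.14 with a median of 0.73, 1452183_a_at from -0.46 to 1.35 with a median of 1.00, 1436713_s_at from -1.49 to -0.35 with a median of -0.73, and 1436057_at from -1.29 to -0.50 with a median of -0.86. No MEF-derived clone reached the lowest ESC in any Meg3 probe set, and the lowest value was that of iPSC-6 in 3 of the 4 and that of iPSC-5 in 1436057_at. Those 2 clones also had the lowest fibroblast and feeder means of the group, -0.30 in iPSC-6 and -0.03 in iPSC-5, against 0.12 to 0.81 in the other 4. Over the 6 clones r between this mean and the Meg3 mean was 0.76 and rho 0.60 (exact permutation p = 0.0958 and 0.242). How much of the Meg3 difference from ESC goes with these markers was not tested.

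**Figure D1:**
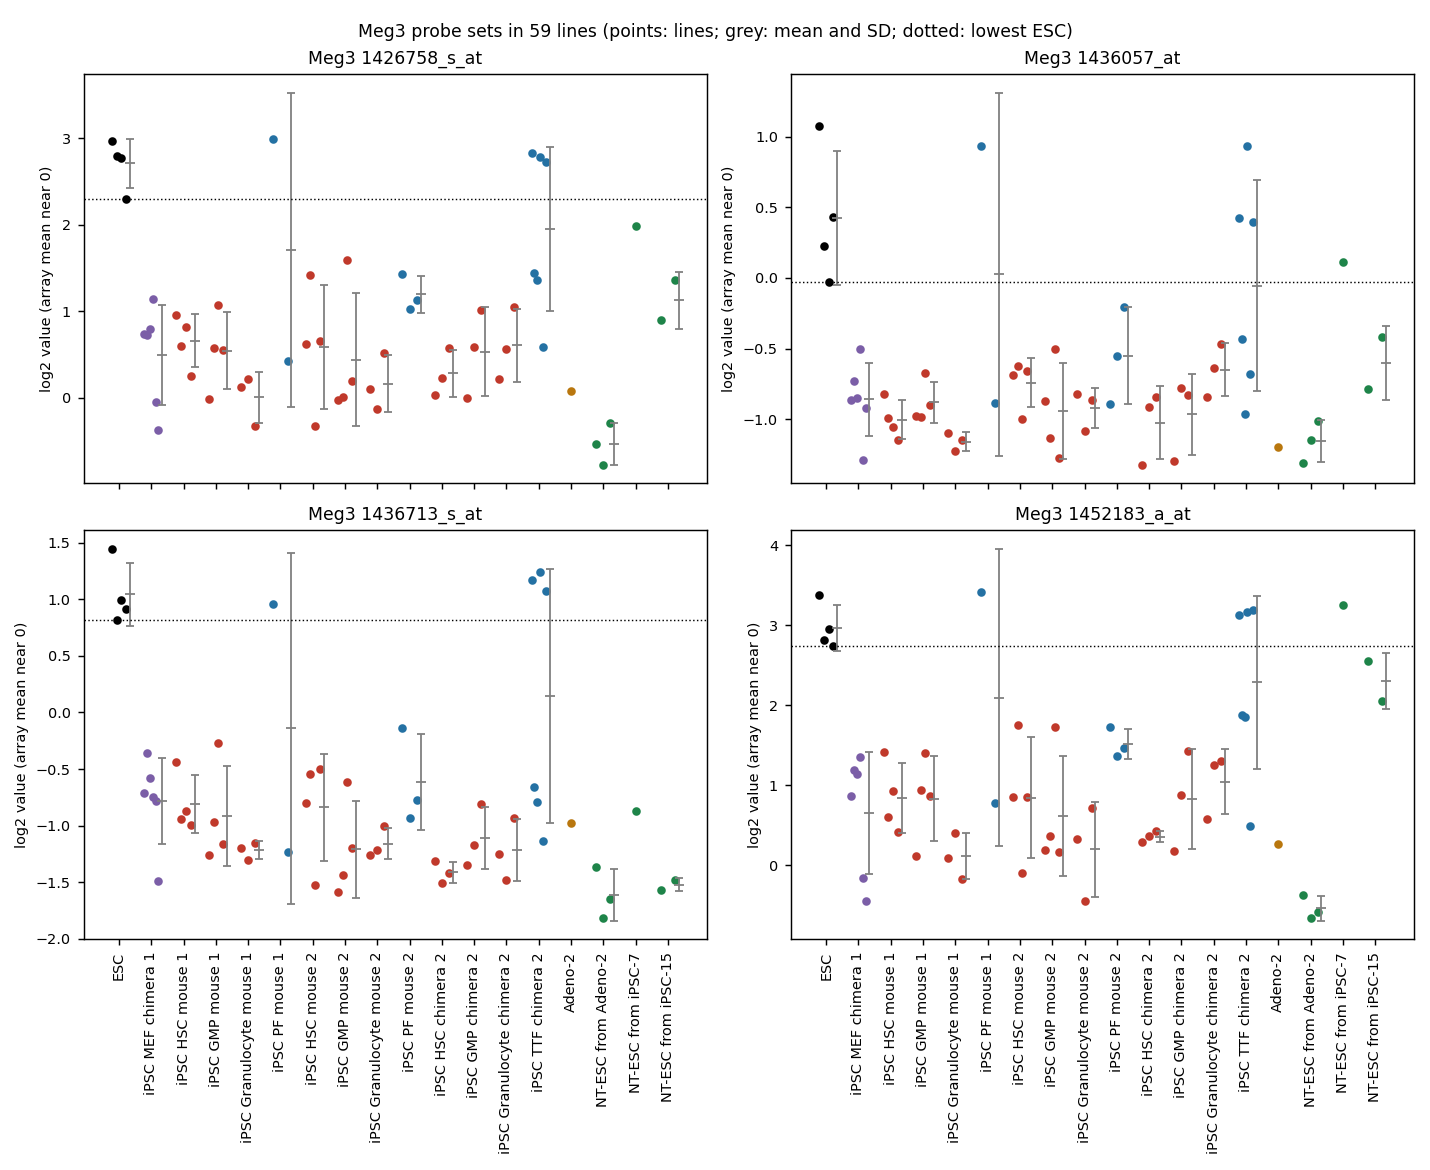
Log2 values of the 4 Meg3 probe sets (vertical axes) in each of the 59 lines by origin group (horizontal axis), with points for lines, grey marks for the mean and SD of groups with more than 1 line, and a dotted line at the lowest ESC. In every panel 44 of 48 iPSC lie below the dotted line, and the 4 that do not are 1 clone labelled PF of mouse 1 and 3 labelled TTF of chimera 2.

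Rian, a noncoding transcript downstream of Meg3 that hosts box C/D small nucleolar RNAs, showed the same split. Probe set 1452899_at read 3.49, 3.45, 3.52 and 3.71 in ESC-1 to ESC-4, the tightest spread of any member in ESC (SD 0.11, n = 4). Probe set 1428055_at read 2.06, 0.15, 0.40 and 1.04, and 1427580_a_at read -0.02, -0.06, 0.13 and 0.86. In the 6 MEF-derived iPSC, 1452899_at ranged from 0.22 to 2.31 with a median of 1.09, 1428055_at from -2.98 to -1.13 with a median of -2.28, and 1427580_a_at from -3.52 to -1.49 with a median of -2.89. The groups did not overlap in any of the 3 probe sets, and iPSC-4 was the highest MEF-derived clone in each. What share of all probe sets shows no overlap between these groups is not given here, for Rian as for Meg3.

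ESC against MEF-derived iPSC was tested with limma over all 22626 probe sets, with Benjamini-Hochberg adjustment and a threshold of 0.05, and 5 of the 8 members passed, all lower in iPSC. Over all probe sets 0.0354% passed, which is 8 probe sets, 5 of them Meg3 or Rian. Meg3 fell by 2.21 ± 0.27 (log2 difference ± SE, adjusted p = 0.0223, limma) in 1426758_s_at and by 1.82 ± 0.19 (adjusted p = 0.0223, limma) in 1436713_s_at, factors of 4.64 and 3.53. The differences of -2.32 in 1452183_a_at and -1.28 in 1436057_at did not pass (adjusted p = 0.0556 and 0.0565, limma). Rian fell by 2.99 ± 0.35 in 1427580_a_at and 3.09 ± 0.38 in 1428055_at (adjusted p = 0.0223 for both, limma), and by 2.38 ± 0.31 in 1452899_at (adjusted p = 0.027, limma), or factors of 7.95, 8.54 and 5.2. Dlk1 differed by -0.22, with a 95% interval from -0.81 to 0.37. The adjusted p-values lie close to the threshold: none of the 8 members passed without ESC-2, ESC-3, ESC-4, iPSC-1, iPSC-3 or iPSC-5, and 3 passed without ESC-1, while over all such omissions the Meg3 differences stayed between -2.46 and -1.07 and the Rian differences between -3.35 and -2.19.

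**Figure D2:**
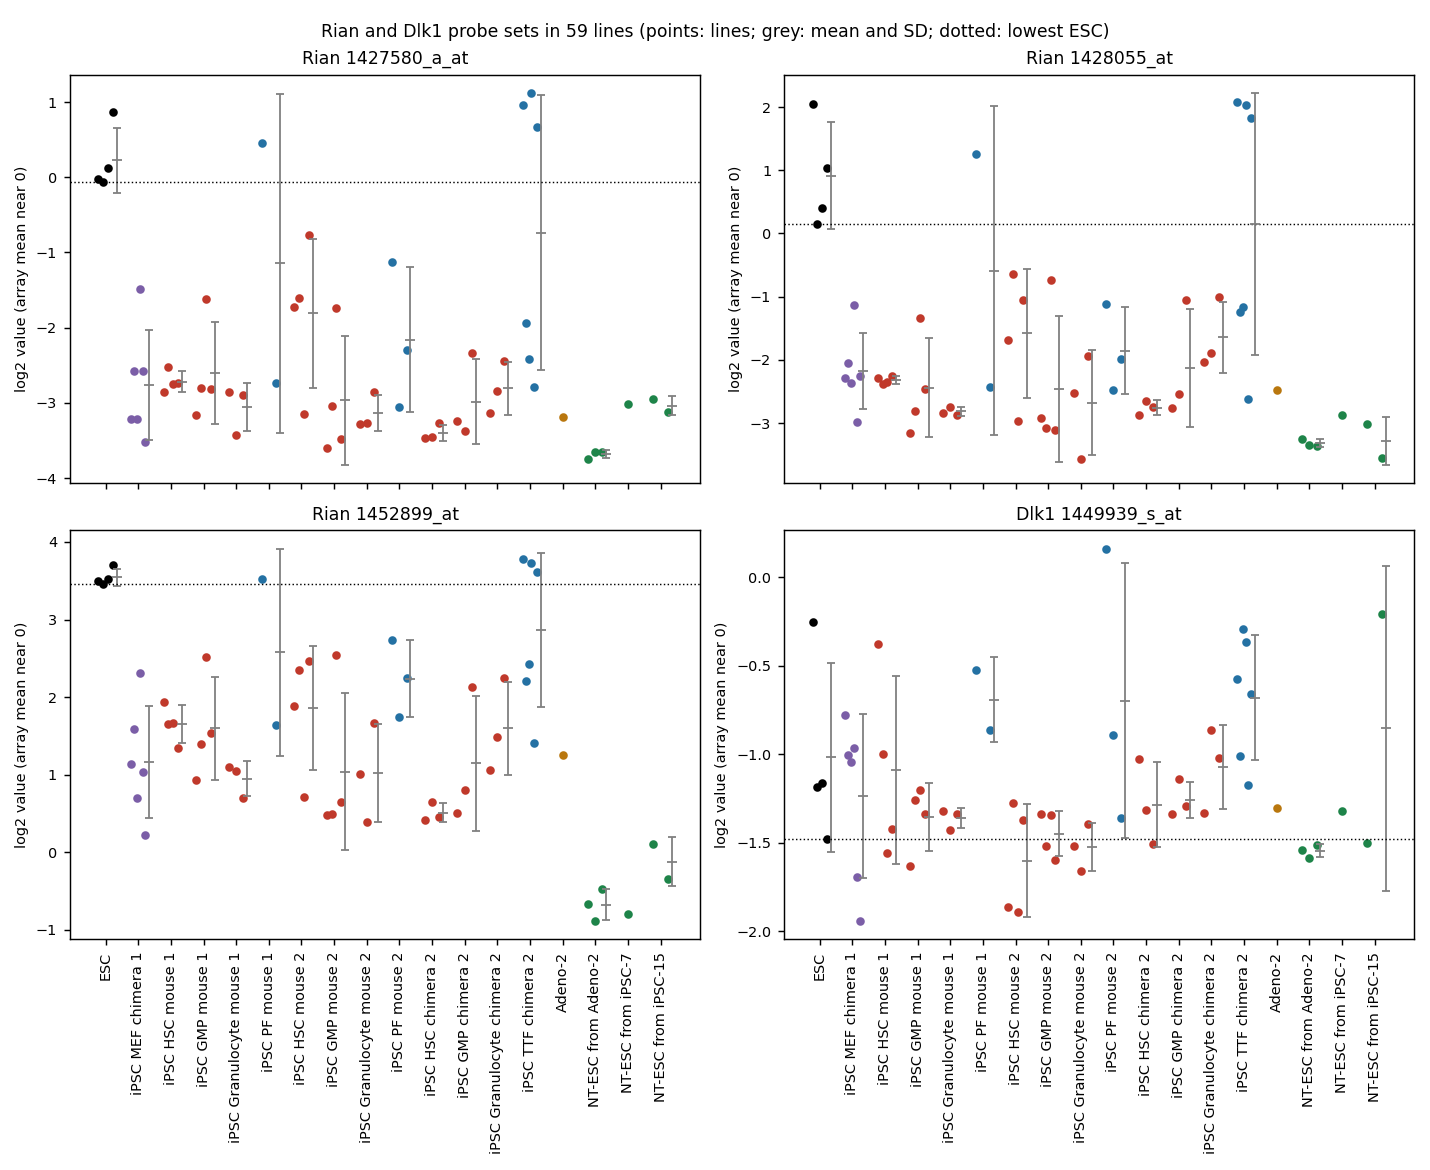
Log2 values of the 3 Rian probe sets and the Dlk1 probe set (vertical axes) in the 59 lines by origin group (horizontal axis), drawn with points for lines, grey marks for mean and SD, and a dotted line at the lowest ESC. For Rian the same 44 of 48 iPSC and all 6 NT-ESC lie below the line, whereas 11 of 48 iPSC do for Dlk1.

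Across all 48 iPSC, low Meg3 and low Rian were found at every origin. In each of the 7 Meg3 and Rian probe sets 44 clones read below the lowest ESC, and the exceptions were iPSC-19, iPSC-44, iPSC-47 and iPSC-49 each time. How often other probe sets reach such a count is not given here. With a stricter limit of 1 below the ESC mean, 36 clones were low in all 7. No clone lay between the groups: sorted by the Meg3 mean, the 44 low clones ended at 0.56 (iPSC-45) and the 4 high ones began at 1.85 (iPSC-49), a gap of 1.29, and the next widest gap was 0.14. For Rian the gap was 1.52, from 0.22 in iPSC-24 to 1.74 in iPSC-19, and the next widest was 0.33. The clones just inside and outside the limit were iPSC-27 (1.59) and iPSC-49 (2.72) in 1426758_s_at, where the limit was 2.30.

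The 4 high clones held Meg3 and Rian at or above the ESC mean together. Their Meg3 shifts were 0.29 (iPSC-19), 0.10 (iPSC-44), 0.25 (iPSC-47) and 0.06 (iPSC-49), and their Rian shifts were 0.18, 0.71, 0.74 and 0.48 in the same order. In 1428055_at, iPSC-44 (2.08) read above the highest ESC (2.06), and in 1427580_a_at 2 clones did, iPSC-44 (0.96) and iPSC-47 (1.12), against 0.86 in ESC-4. The same 2 clones, at 3.78 and 3.73, also exceeded the highest ESC (3.71) in 1452899_at. Their Dlk1 values of -0.52, -0.57, -0.37 and -0.66 were above those of 3 ESC and below that of ESC-1, and their fibroblast and feeder means were 0.87 to 1.19.

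ESC against all iPSC gave 7 of 8 members past the threshold in limma, all lower in iPSC, where 4.5% of all probe sets passed. The differences were between -2.002 and -1.166 for Meg3, with adjusted p-values between 0.00122 and 0.00776 (limma), and between -2.79 and -1.95 for Rian, with adjusted p-values between 0.00661 and 0.0109 (limma). Dlk1 differed by -0.16 (95% interval from -0.61 to 0.29, adjusted p = 0.719, limma). The call depends on treating the clones of an animal as independent: with the animal as a random block none of the 8 members passed (adjusted p from 0.257 to 0.429 for Meg3 and Rian, limma), at nearly the same differences of -2.04 to -1.18 and -2.836 to -1.998, and then no probe set passed at all and 1746 had an unadjusted p under 0.05. Without ESC-2 only 1 of the 8 members passed, and without ESC-3 only 3.

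Ordered by the Meg3 mean over probe sets, ESC stood first at 1.79 ± 0.29 (SD, n = 4) and the 3 NT-ESC of Adeno-2 last at -0.96 ± 0.12 (SD, n = 3). The iPSC labelled TTF (1.08 ± 0.95, SD, n = 6) and the PF clones of mouse 1 (0.92, n = 2) came next among the iPSC, each with both high and low clones. The PF clones of mouse 2 followed at 0.39 ± 0.15 (SD, n = 3), and the blood and MEF origins lay between -0.04 (HSC of mouse 2) and -0.57 (granulocytes of mouse 1). From the TTF clones down to the HSC clones of chimera 2, each group overlapped the next. By Rian the order of ESC, TTF clones and PF clones of mouse 1 was the same (1.56, 0.76 and 0.28), Adeno-2 NT-ESC were again last at -2.56 ± 0.07 (SD, n = 3), and the NT-ESC of iPSC-15 and iPSC-7 moved from the upper part of the Meg3 order to just above them.

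Blood-derived clones had less of all 3 transcripts than clones labelled PF or TTF. In 1426758_s_at the 31 blood-derived clones ran from -0.33 to 1.59 with a median of 0.52, and the 11 PF and TTF clones from 0.42 to 2.99 with a median of 1.43. In 1452899_at of Rian the blood-derived clones ran from 0.39 to 2.55 with a median of 1.10, and the others from 1.41 to 3.78 with a median of 2.43. The ranges overlapped for all 3 genes. All 4 high clones are among these 11, and the other 7 ran from 0.42 to 1.44 in 1426758_s_at and from 1.41 to 2.73 in 1452899_at, within the blood-derived range but for iPSC-32 in 1452899_at. With cell type and animal in the model all 8 members passed in limma, where 47.5% of all probe sets passed. The differences, blood minus PF and TTF, were -1.35 to -0.71 for Meg3, -1.63 to -1.37 for Rian and -0.63 for Dlk1, with adjusted p-values from 1.63e-05 to 0.00118 (limma).

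Fibroblast and feeder markers moved with this comparison. Of the 29 probe sets of that list 27 were lower in blood-derived clones and 0 higher, with a median difference of -0.87 against -0.00 over all probe sets, and Dcn, a collagen-binding proteoglycan, fell by 1.63. The list mean ran from 0.13 to 1.54 in blood-derived and from 0.87 to 2.01 in PF and TTF clones. With the list mean as a covariate 5 of the 8 members and 15.1% of all probe sets passed. The Dlk1 difference became -0.05 (adjusted p = 0.878, limma), while the Rian differences of -2.42 in 1427580_a_at and -2.37 in 1428055_at passed (adjusted p = 0.0134 and 0.0331, limma), and that of -1.21 in 1452899_at did not (adjusted p = 0.105, limma). The Meg3 differences ran from -1.30 to -1.19, and that in 1452183_a_at did not pass (adjusted p = 0.0689, limma). In bulk RNA, fewer cells of a type and less RNA per cell cannot be told apart.

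Among the blood origins no difference was found. The F test across HSC, GMP and granulocyte origin called 0 members, and 0% of all probe sets, in limma, where 597 probe sets and none of the 8 members had an unadjusted p under 0.05. The largest difference between these origins was 0.32 for Meg3 (1452183_a_at), 0.43 for Rian (1427580_a_at) and 0.04 for Dlk1. Differences among the 3 animals called 42.5% of all probe sets but 0 of 8 members, with adjusted p-values from 0.188 for Dlk1 to 0.978 for 1427580_a_at (limma). Whether the gap between blood and PF or TTF origin differs by animal called 18.4% of all probe sets and 0 of 8 members, with adjusted p-values of at least 0.194 (limma).

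Within the low clones the residual Meg3 and Rian levels rose and fell together. Because the 48 clones form separate clusters, no pooled correlation is given. Over the 31 blood-derived clones, all of them in the low cluster, Pearson's r between the Meg3 and Rian means was 0.90 (permutation p = 1e-05, the smallest that 100000 resamples allow, 0.00012 adjusted over 48 relations) and Spearman's rho was 0.87. Without the 2 clones farthest from the median Meg3, r was 0.86. The relation held within each animal, with r = 0.86 and rho = 0.85 in mouse 1 (n = 11, permutation p = 0.00019 for r, 0.00114 adjusted), 0.94 and 0.86 in mouse 2 (n = 11, permutation p = 1e-04, 0.0008 adjusted), and 0.91 and 0.83 in chimera 2 (n = 9, exact permutation p = 0.00125, 0.00599 adjusted). As deviations from the origin group means, r was 0.91 and rho 0.87. Over the 44 low clones of all origins r was 0.86 and rho 0.86. In the 6 MEF-derived clones r was 0.68 and rho 0.83 (exact permutation p = 0.108 and 0.0583), and in the 7 low PF and TTF clones r was 0.83 and rho 0.82 (exact permutation p = 0.02 and 0.0341, 0.0556 and 0.091 adjusted).

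Of the blood-derived groups the GMP clones of mouse 2 varied most, with an SD of 0.55 for the Meg3 mean and 0.99 for the Rian mean. The smallest SD was 0.12 for Meg3 (granulocytes of mouse 1) and 0.07 for Rian (HSC of mouse 1). Of the 4 GMP clones of mouse 2, iPSC-25, iPSC-26 and iPSC-28 read 0.19 or less in 1426758_s_at and -2.92 or less in 1428055_at. In contrast, iPSC-27 read 1.59 and -0.74. Per unit of Meg3, Rian changed by 1.66 log2 units over the blood-derived clones, and by 1.15 in mouse 1, 1.89 in mouse 2 and 1.80 in chimera 2.

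**Figure D3:**
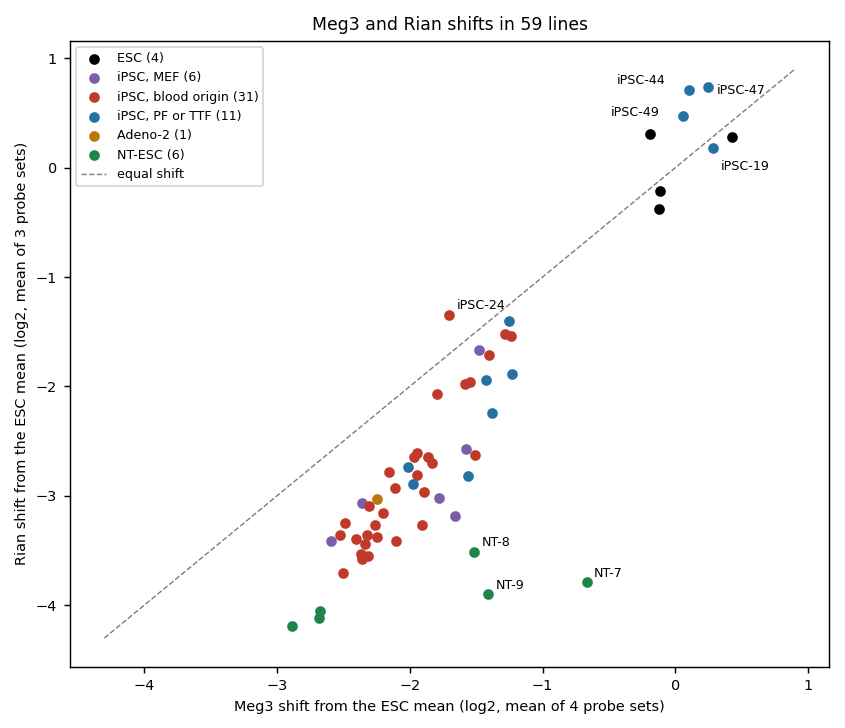
Shift from the ESC mean for Meg3 (horizontal axis, log2, mean of 4 probe sets) against Rian (vertical axis, log2, mean of 3 probe sets), 1 point per line in 59 lines, coloured by class, with a dashed line where the shifts are equal. Low iPSC lie in a band below the dashed line except iPSC-24, the 4 high clones lie near the ESC, 3 of them above every ESC in Rian, and NT-7, NT-8 and NT-9 lie to the right of the band.

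Single probe sets differed in how closely they followed each other. Over the 31 blood-derived clones the 3 pairs of Rian probe sets correlated at 0.82 to 0.90, the 6 pairs of Meg3 probe sets at 0.48 to 0.95, and the 12 pairs of a Meg3 with a Rian probe set at 0.62 to 0.87. These correlations share the same arrays and are descriptions only. The highest pair, at 0.95, was 1426758_s_at with 1452183_a_at, which the platform annotation ties to the same transcript record. The range of 1436057_at was the narrowest, with an ESC to iPSC difference of -1.17 against -2.002 to -1.862 in the other 3 Meg3 probe sets.

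The difference between the Meg3 shift and the Rian shift of a line, called D here, is 0 where the log2 values of both moved equally. D was 0.15, 0.26, 0.10 and -0.50 in ESC-1 to ESC-4. In the 48 iPSC it ran from -0.61 to 1.53 with a median of 0.82, and 40 clones exceeded the highest ESC, all of them low clones. The mean of 0.71 ± 0.50 (SD, n = 48) differed from ESC with an exact permutation p = 0.0152 (2-sided, 0.0317 adjusted over 5 tests). The result rests on which probe sets are averaged: with the probe set of the highest mean per gene, 1452183_a_at and 1452899_at, the difference was -0.05 (exact permutation p = 0.784), and with the widest range, 1452183_a_at and 1428055_at, it was 0.79 (exact permutation p = 0.0354, 0.0714 adjusted). Unequal shifts of Meg3 and Rian in iPSC were thus not found with every pair of probe sets.

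All 6 NT-ESC kept Rian far below ESC, and the 2 sets of NT-ESC differed in Meg3. In the Adeno-2 family, the donor read 0.08 in Meg3 1426758_s_at and NT-4, NT-5 and NT-6 read -0.54, -0.78 and -0.29. In Rian 1452899_at, the donor read 1.26 and the NT-ESC -0.67, -0.88 and -0.47, and no line outside the NT-ESC was below 0.22. All 3 NT-ESC lay below their donor in every Rian probe set, in 3 of 4 Meg3 probe sets and in Dlk1. Beside this the fibroblast and feeder mean was 1.16 in Adeno-2 and -0.32 to -0.26 in its NT-ESC, and the part of these markers in the differences was not tested.

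In the other families Rian was also far below ESC, with shifts of -3.90 to -3.51 against -4.19 to -4.06 in the Adeno-2 NT-ESC. In contrast, 3 Meg3 probe sets read higher than the donor in all 3 NT-ESC. In 1452183_a_at NT-7 read 3.26 against 1.42 in iPSC-7, and NT-8 and NT-9 read 2.55 and 2.05 against 0.09 in iPSC-15, so that NT-7 lay within the ESC range of 2.74 to 3.38. In 1426758_s_at the differences from the donor were 1.02, 0.77 and 1.24 for NT-7, NT-8 and NT-9. In 1436057_at they were 0.93, 0.31 and 0.69 in the same order. In 1436713_s_at the same 3 lines were lower than their donors, by 0.44, 0.37 and 0.28. For Rian 1452899_at, NT-7 fell by 2.73 from its donor, NT-8 by 1.00 and NT-9 by 1.45. The shift in 1452183_a_at exceeded that in 1436713_s_at by 2.20, 2.19 and 1.61 in NT-7, NT-8 and NT-9, against -1.30 to 0.80 in the other 56 lines, so that the Meg3 probe sets disagree in these 3 arrays, which stand apart as described above.

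**Figure D4:**
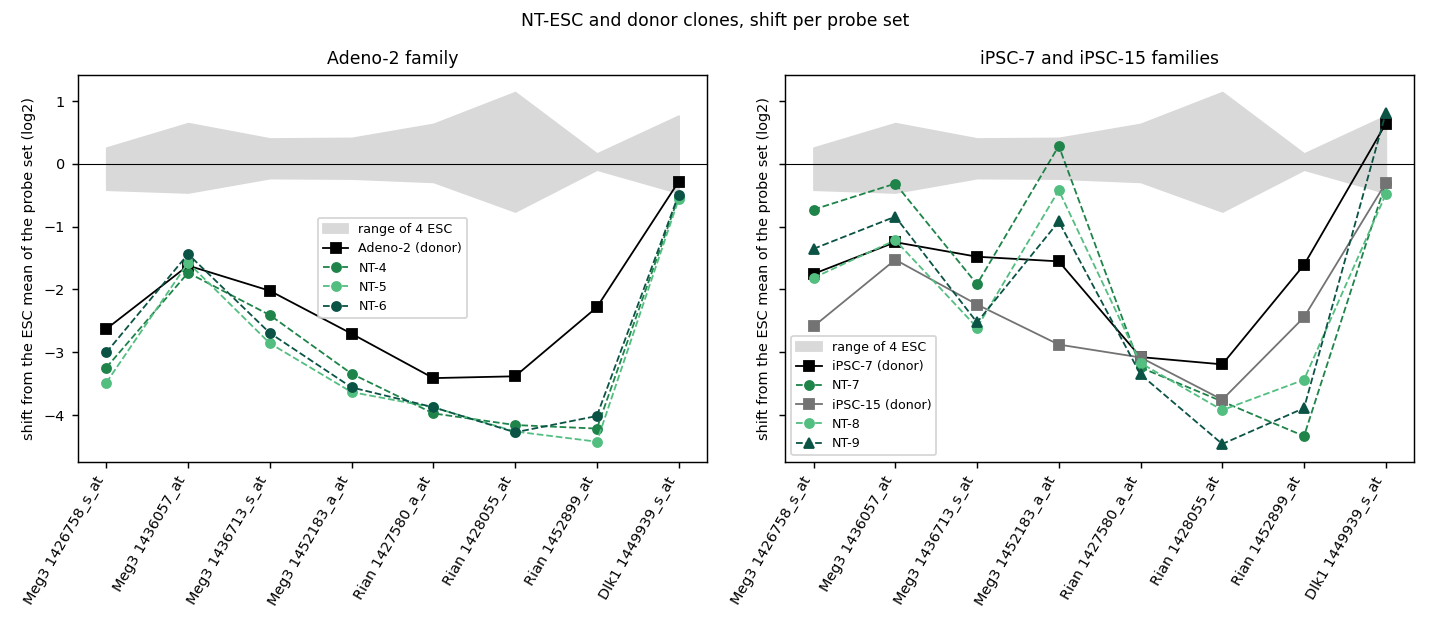
Shift from the ESC mean (vertical axis, log2) for each of the 8 probe sets (horizontal axis) in donors (squares) and NT-ESC (round or triangular points), for the Adeno-2 family at left and the iPSC-7 and iPSC-15 families at right, with the range of the 4 ESC shaded. In all 6 NT-ESC the Rian shifts lie between -4.46 and -3.17, while Meg3 1452183_a_at spans -3.63 in NT-5 to 0.29 in NT-7.

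In limma, 7 of 8 members were lower in Adeno-2 NT-ESC than in ESC, where 0.376% of all probe sets passed. Meg3 differed by -3.24, -1.58, -2.65 and -3.51 in 1426758_s_at, 1436057_at, 1436713_s_at and 1452183_a_at, and Rian differed by -3.91, -4.23 and -4.22 in 1427580_a_at, 1428055_at and 1452899_at, with adjusted p-values from 2.16e-05 to 0.0475 (limma). Dlk1 differed by -0.53 (95% interval from -1.28 to 0.23). For NT-7, NT-8 and NT-9 against ESC, 6 of 8 members were lower, where 64.5% of all probe sets passed. Rian differed by -4.06 to -3.26 (adjusted p of 2.55e-05 or less, limma), Meg3 by -2.35 in 1436713_s_at, -1.30 in 1426758_s_at and -0.79 in 1436057_at (adjusted p = 1.79e-05, 0.00147 and 0.0262, limma), and 1452183_a_at differed by -0.35 (95% interval from -0.93 to 0.23, adjusted p = 0.255, limma). With single lines left out, 1436057_at passed in 1 of 7 fits for the Adeno-2 NT-ESC and in 3 of 7 for NT-7, NT-8 and NT-9, where 1452183_a_at passed in 1 of 7. All 6 NT-ESC taken as 1 group gave 4 of 8 members, the 3 of Rian and Meg3 1436713_s_at, of only 5 probe sets or 0.0221% in all. The ESC arrays are shared by these comparisons and by those with iPSC. NT-ESC of the same donor are counted as independent lines in these fits.

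Against the donors, with the donor line as a block, 0 of 8 members and 0.0575% of all probe sets passed in limma, and 3 members had an unadjusted p under 0.05. Rian 1452899_at had the largest difference, -1.89 ± 0.26 (adjusted p = 0.0604, limma), and was lower than the donor in 6 of 6 NT-ESC. In the Adeno-2 family alone, where 3 NT-ESC stand against 1 donor array whose own spread is unknown, 4 of 8 members and 16.7% of all probe sets passed, Meg3 1452183_a_at (-0.81) and Rian 1427580_a_at, 1428055_at and 1452899_at (-0.50, -0.85 and -1.93), with adjusted p-values from 0.00182 to 0.0277 (limma). The change from the donor differed between the families for 2 of 8 members, against 13.9% of all probe sets, in a limma test added after the data were seen. These were Meg3 1452183_a_at, by 2.86 ± 0.33 (adjusted p = 0.0058, limma), and 1426758_s_at, by 1.63 ± 0.33 (adjusted p = 0.0249, limma), while for the 3 Rian probe sets the difference was 0.07 to 0.35 (adjusted p of at least 0.331, limma).

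With all probe sets averaged, D separated the NT-ESC from ESC. It was 1.43, 1.30 and 1.38 in NT-4, NT-5 and NT-6, against 0.78 in Adeno-2, and 3.12, 2.00 and 2.49 in NT-7, NT-8 and NT-9, against 1.12 in iPSC-7 and 0.79 in iPSC-15. Each of the 6 exceeded every ESC, as did 40 of 48 iPSC, and NT-7, NT-8 and NT-9 also exceeded every iPSC. NT-4, NT-5 and NT-6 lay within the iPSC range, which ended at 1.53. In NT-7, NT-8 and NT-9 the Meg3 probe sets that enter D disagree, as described above. The mean D of 1.95 ± 0.73 (SD, n = 6) differed from ESC with an exact permutation p = 0.00952 (2-sided), the smallest this design allows, and 0.0317 adjusted over 5 tests. This p counts the 6 lines as independent, although they are subclones from only 3 donors. For 3 lines against 4 ESC the smallest possible p is 0.0571, which both NT-ESC sets reached. With the probe sets of the highest mean the difference was 2.12 over the 6 lines (exact permutation p = 0.019, 0.0952 adjusted) and 0.71 in the Adeno-2 family (exact permutation p = 0.114). With these probe sets D of the lowest Adeno-2 NT-ESC, 0.455, lay below that of the highest ESC, 0.464.

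Dlk1 overlapped between ESC and iPSC, unlike Meg3 and Rian in most clones. Its 1 probe set has a mean over the 59 lines above that of only 38.5% of all probe sets. A fall of Dlk1 from so low a signal could be missed. Rian 1427580_a_at and 1428055_at ranked lower still, at 23.1% and 29.8%, by means that include the many lines low in Rian. The part of low signal in their values was not tested. Dlk1 read -0.25, -1.18, -1.16 and -1.48 in ESC-1 to ESC-4, and -1.94 to 0.16 with a median of -1.31 in the 48 iPSC. The ranges of ESC and iPSC thus overlapped, with 11 of 48 clones below the lowest ESC. The clones labelled PF or TTF ran from -1.36 to 0.16 with a median of -0.66, the MEF-derived ones from -1.94 to -0.78 with a median of -1.03, and the blood-derived ones from -1.89 to -0.38 with a median of -1.34. The 4 clones with high Meg3 and Rian read -0.66 to -0.37 in Dlk1, and of the 44 low clones, with a median of -1.33, iPSC-7, iPSC-32 and iPSC-46 reached that range or lay above it. The highest line was iPSC-32, which had low Pou5f1 and the highest fibroblast and feeder mean, and ESC-1 and iPSC-7 were likewise the highest of their groups in both.

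Within the low clones Dlk1 was also set against Meg3, and whether its correlation with Meg3 differs from that of Rian was not tested. Over the 44 low clones of all origins r between Meg3 and Dlk1 was 0.60 and rho 0.58 (permutation p = 3e-05 and 8e-05, 0.000288 and 0.00096 adjusted). Permutations over the 44 did not keep the origins apart, so these p-values also take in differences between origins. In the 7 low PF and TTF clones r between Meg3 and Dlk1 was 0.36 and rho 0.04 (exact permutation p = 0.443 and 0.963). Over the 31 blood-derived clones r was 0.42 and rho 0.42 (permutation p = 0.0171 and 0.0192, 0.0556 and 0.0577 adjusted), and it was 0.49 without the 2 clones farthest from the median Meg3. Within animals r was 0.58, 0.53 and 0.32 in mouse 1, mouse 2 and chimera 2, none of them past the threshold (permutation p from 0.0561 to 0.406, exact in chimera 2). As deviations from the origin group means r was 0.51 (permutation p = 0.00383, 0.0145 adjusted). In the 6 MEF-derived clones r was 0.93 and rho 0.66 (exact permutation p = 0.0306 and 0.175, 0.0698 and 0.262 adjusted) but -0.62 once iPSC-5 and iPSC-6 were left out, so it rests on those 2 clones. Between Rian and Dlk1 r was 0.42 and rho 0.44 over the 44 low clones (permutation p = 0.00394 and 0.00315, 0.0145 and 0.0137 adjusted), and 0.21 and 0.35 over the blood-derived clones (permutation p = 0.248 and 0.0559). As deviations from origin group means they were 0.39 and 0.44 (permutation p = 0.0327 and 0.0129, 0.0713 and 0.0444 adjusted).

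The fibroblast and feeder mean also varied with Dlk1. Over the 44 low clones its r with Dlk1 was 0.66, with Meg3 0.53 and with Rian 0.34 (permutation p = 1e-05, 0.0003 and 0.0224, the last 0.0566 adjusted), and rho was 0.45, 0.46 and 0.36. Over the blood-derived clones as deviations from the origin group means, r with Dlk1 was 0.66 (permutation p = 0.00012). It was 0.45 without the 2 clones farthest from the median of the list. Without removing group means, r with Dlk1 was 0.42 and rho 0.13 (permutation p = 0.0206 and 0.491, 0.0556 and 0.548 adjusted). That r was 0.08 without the 2 farthest clones. Within animals r with Dlk1 was 0.75, 0.46 and 0.22 in mouse 1, mouse 2 and chimera 2, none past the threshold after adjustment. With Meg3 the relation passed the threshold in 1 of 3 animals, with r = 0.81 in mouse 1 (n = 11, permutation p = 0.00164), 0.11 in mouse 2 and 0.05 in chimera 2, and a difference among animals was not tested. With Rian no animal passed the threshold.

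**Figure D5:**
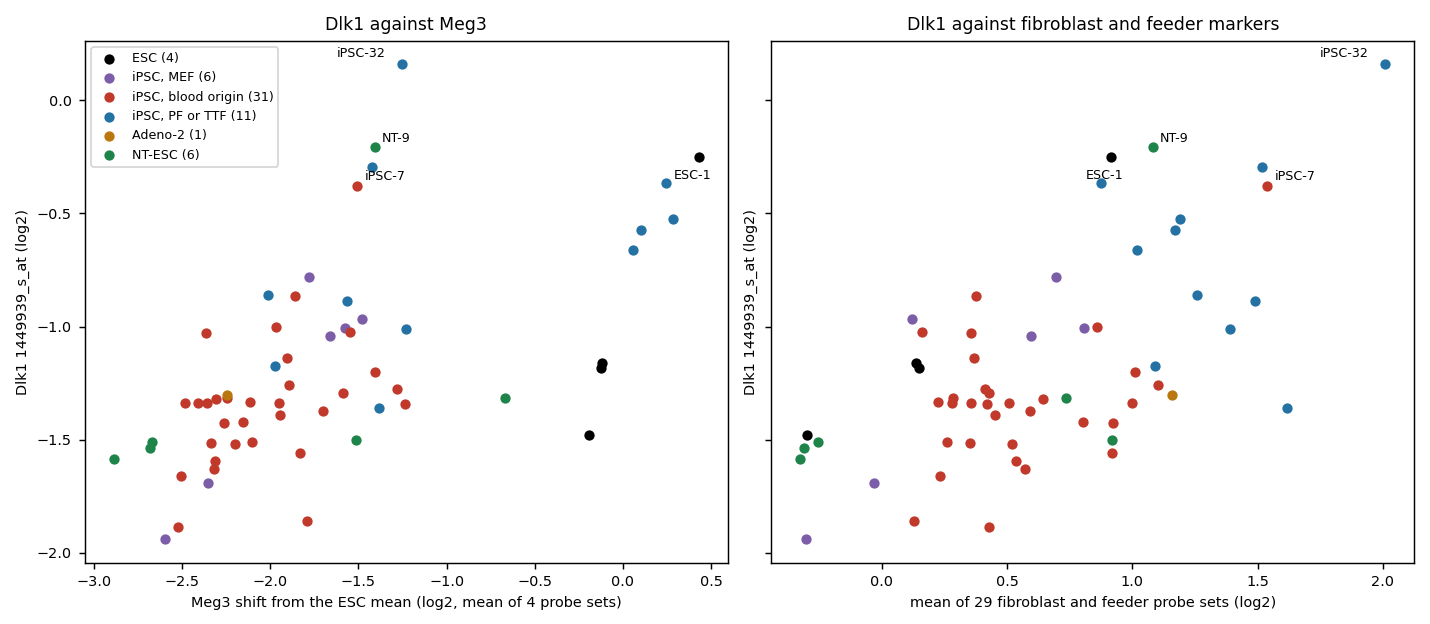
Dlk1 1449939_s_at (vertical axes, log2) in the 59 lines against the Meg3 shift from the ESC mean (left, log2) and against the mean of 29 fibroblast and feeder probe sets (right, log2), 1 point per line, coloured by class. ESC lie at the high end of Meg3 with Dlk1 of -1.48 to -0.25, and iPSC-32 has the highest value on both axes of the right panel.

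Genes flanking the domain were measured by more probe sets than the domain itself. Of 32 probe sets of 13 flanking genes outside the imprinted domain, 0 passed in ESC against MEF-derived iPSC, with a median difference of -0.03. In Adeno-2 NT-ESC against ESC 0 passed, with a median of 0.11. Over all probe sets only 0.0354% and 0.376% passed in these 2 comparisons, so a count of 0 in a list of this size says little. In ESC against all iPSC, where 4.5% of all probe sets passed, 3 of the 32 passed. The 2 lower were both of Ppp2r5c, a regulatory subunit of protein phosphatase 2A (-0.91 and -0.67). The 1 higher was of Wars, the tryptophanyl-tRNA synthetase (0.36). Of 18 probe sets of other maternally expressed imprinted genes, 0 passed in any of these 3 comparisons, with median differences from -0.07 to 0.02. In blood-derived against PF and TTF clones 47.5% of all probe sets passed. There 18 of the 32 flanking probe sets passed, 14 higher and 4 lower, and 7 of the 18 of other imprinted genes, 5 higher and 2 lower.

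Of 18 probe sets of genes that set or keep DNA methylation, 0 passed in ESC against MEF-derived iPSC or in Adeno-2 NT-ESC against ESC. Over all probe sets 0.0354% and 0.376% passed there. In ESC against all iPSC 3 were higher, all of Dnmt3a, a de novo DNA methyltransferase (0.82 to 1.11), and 1 was lower, Dppa3, an oocyte and germ cell factor that protects methylated imprints (-0.55), where 4.5% of all probe sets passed. With the animal as a random block no probe set passed in that comparison, so the calls of Ppp2r5c, Wars, Dnmt3a and Dppa3 are lost. In NT-7, NT-8 and NT-9, 11 of the 18 were lower than in ESC and 1 higher, among them Uhrf1, which brings Dnmt1 to replicating DNA (-1.93), while 25 of the 32 flanking probe sets passed, 12 higher and 13 lower, on arrays where most probe sets did.

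Likeness to the Meg3 mean was measured as Pearson's r over the 48 iPSC, as deviations from origin group means. The 7 Meg3 and Rian probe sets held 7 of the 8 highest ranks, at r from 0.88 to 0.98, and the mean contains the 4 of Meg3. Rank 3 was 1439380_x_at (r = 0.95, and 0.95 over the blood-derived clones), which is unnamed here and was noticed after its values were seen. Dlk1 stood at rank 18 of 22626 with r = 0.50. Among other named genes the highest were Insr (0.60), Esam (0.55), Cadm3 (0.54), Pex26 (0.52), Chchd5 (0.52) and Cyp4f14 (0.50), and the lowest were Arfgef1 (-0.58), Ube2d2a (-0.56) and Ywhaz (-0.52). Without removing group means these were 0.49, 0.33, 0.60, 0.34, 0.14 and 0.30, and -0.23, -0.28 and -0.45. Over the 31 blood-derived clones, none of them in the high cluster, r was 0.52 for Insr and -0.51 for Arfgef1, but between -0.28 and 0.25 for the other 7.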

How the data were processed

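The log2 values analysed were deposited by the authors as 1 table of 59 arrays. The base of 2 and the centring of each array near 0 were inferred from the values, which run from -4.83 to 6.97, while for background correction, summarisation and scan dates nothing is stated in the sources used here. Labelled cRNA was prepared by an Affymetrix biotin protocol, per the labels. Precision is limited by the number of arrays per group.

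Probe sets were named through the platform annotation, updated by gene identifier to RefSeq symbols. Of 22626 probe sets 18003 had 1 gene, 287 several and 4336 none. Each probe set was fitted on its own with limma 3.58.1 under R 4.3.3, using its 2-sided moderated statistics, and adjusted over all probe sets by Benjamini-Hochberg at 0.05, and every adjusted p of a probe set in the text is from limma. Both sets of NT-ESC and the ESC shared 1 fit. Permutation tests and correlations used SciPy and NumPy in Python 3.11.15. The fits were tested on simulated data.

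Members and gene lists were chosen with earlier results of these data known. All members were named in every comparison, up to 4 list members past the threshold per list, and the 6 probe sets most and the 3 least like the Meg3 mean. Alternatives covered normalization, a filter on low probe sets, trend and robust settings, gene means, blocks, covariates, and leaving out lines, animals or families. The term for the difference between families and the fits without iPSC-32 were chosen after seeing the data.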

Additional observations from a re-analysis of the deposited data

Results flagged for a closer look

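iPSC-27, a GMP clone of mouse 2, stood far above the other 3 clones of its group in 4 probe sets. Meg3 read 1.59 in 1426758_s_at against -0.02 to 0.19, and 1.73 in 1452183_a_at against 0.17 to 0.36. Rian read -0.74 in 1428055_at against -3.12 to -2.92, and 2.55 in 1452899_at against 0.48 to 0.64. Its gap to the nearest clone was 0.87 to 0.92 of the range of the group. These were 4 of the 56 combinations of a probe set and a group of 4 to 6 lines that were looked at, and chance gives about 1 in 20.

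The change from donor to NT-ESC differed between families in 2 Meg3 probe sets. They were 2 of 8 members, where 13.9% of all probe sets passed, in a test added after the data were seen. The families of iPSC-7 and iPSC-15 exceeded the Adeno-2 family by 2.86 in 1452183_a_at (adjusted p = 0.0058, limma) and by 1.63 in 1426758_s_at (adjusted p = 0.0249, limma). In both probe sets NT-7, NT-8 and NT-9 were above and NT-4, NT-5 and NT-6 below their donors. In Meg3 1436057_at and 1436713_s_at the difference between families was 0.65 and 0.26 and was not called. The arrays of NT-7, NT-8 and NT-9 stand apart, as described above.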

How the results depend on the processing

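No difference called as reported changed sign under an alternative. For NT-ESC against donors, where none was called, Meg3 1452183_a_at was called at -0.81 in the Adeno-2 family alone (adjusted p = 0.0168, limma) and at 2.05 without Adeno-2 (adjusted p = 0.000767, limma). In that fit without Adeno-2, 4 of the 8 members and 11520 of all 22626 probe sets passed. ESC against MEF-derived iPSC called 5 members, and 0 to 6 when single lines were left out. ESC against all iPSC called 7, 1 to 7 when single ESC were left out, and 0 with the animal as a random block. Blood against PF and TTF origin called 8, and 5 with the fibroblast list mean as a covariate. The filter on low probe sets leaves 5 of the 8 members to test and called 5 for blood against PF and TTF origin, 2 for NT-ESC against ESC and 4 for Adeno-2 NT-ESC against ESC. NT-ESC against donors called 0, with trend and robust settings 1, in the Adeno-2 family alone 4, and 0 to 4 when single lines were left out, with 4 without Adeno-2 and 1 without iPSC-15. The difference in D between NT-ESC and ESC was 1.37 in the Adeno-2 NT-ESC alone (exact permutation p = 0.0571), and r between Meg3 and Dlk1 was 0.35 without mouse 1. With the clone number as a replicate block, ESC against MEF-derived iPSC called 5 members and 26 probe sets against 8. The clones share only a number: deviations of same-numbered clones correlated at 0.04 to 0.50, and 2 of 4 ESC correlated best with their own number.

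Counts over all probe sets moved further. They ran from 0 to 26 for ESC against MEF-derived iPSC, 0 to 4004 for ESC against all iPSC, 3410 to 10859 for blood against PF and TTF origin, 3389 to 9699 among animals, 962 to 4214 for origin by animal, 0 to 11520 for NT-ESC against donors, 2 to 9 for NT-ESC against ESC, 20 to 232 for Adeno-2 NT-ESC against ESC, and 7872 to 15415 for NT-7, NT-8 and NT-9 against ESC.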
